A study of Mus musculus with 2 samples.

Results

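The 10 genes described here, Egr1, Egr2, Egr3, Nr4a1, Ier2, Ier5, Zfp36, Zfp36l1, Zfp36l2 and Dusp1, are early response genes, which many cells transcribe within minutes of a stimulus without first making new protein. They were taken by name, whatever their level, from the 43346 Ensembl genes of the deposited gene tables, and all 10 were found. The samples were 2 libraries, replicates 1 and 2, of polyadenylated RNA from mouse megakaryocytes, the large blood cells that shed platelets. Per the labels these were primary cells from embryos of day 14.5, male and female pooled, of unknown health state, and no treatment, genotype or strain is named. The labels number them as biological replicates of 1 group, so no condition could be compared, yet both cite 1 biosample and 1 donor entry. Part of their spread may therefore be technical. Replicate 1 held 42099208 rounded counts and replicate 2 held 2275920, an 18.5-fold difference in depth.

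The labelled cell type was checked against marker genes. All 12 megakaryocyte markers reached a mean of 1 TPM (a transcript level corrected for length and library total), and they summed to 16737 TPM in replicate 1, against 23814 TPM in replicate 2. Macrophage markers reached that level for 8 of 12 and summed to 876 TPM in replicate 1, against 230 TPM in replicate 2, with Cd163 and Timd4 at 0 in both. Granulocyte markers reached it for 9 of 12, with Ly6g at 0 in both libraries. They summed to 863 TPM in replicate 1, against 150 TPM in replicate 2. In replicate 2, 4 of the 12 macrophage and 7 of the 12 granulocyte markers had 0 counts. Their median levels there were 0.59 and 0 TPM. Over all genes, 22.7% reached a mean of 1 TPM. Erythroid markers (8 of 10) summed to 9589 and 15962 TPM in replicates 1 and 2. Lymphoid (1 of 8) and hepatocyte markers (1 of 6) stayed under 10 TPM in sum in each library, and Cd3e, Cd3g, Alb, Serpina1a and Ttr were among those at 0 in both. In bulk RNA, fewer cells of a type and less RNA per cell cannot be told apart.

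Early response genes link a signal at the cell surface to a new programme of transcription. MAP kinase signalling acts through factors such as SRF and CREB, which already sit on the promoters of many early response genes. The first products include the zinc finger factors of the EGR family and the orphan nuclear receptor NR4A1. Others switch the response off again. The ZFP36 proteins bind AU-rich stretches in 3′ UTRs and recruit the CCR4-NOT deadenylase, and DUSP1 dephosphorylates MAP kinases. In blood cells ZFP36 is best known for restraining inflammatory cytokine messages, and ZFP36L1 and ZFP36L2 for roles in progenitors and lymphocytes.

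The mean level of the 10 genes spanned 166-fold. All 10 reached a mean of 1 TPM, as did 22.7% of all genes, and 9 of 10 did so in replicate 2 alone. Their median was 93.3 TPM in replicate 1, against 80.3 TPM in replicate 2, beside medians of 11.3 TPM and 7.54 TPM over the 9858 genes at a mean of 1 TPM. By mean TPM the order was Zfp36l2, Zfp36, Ier2, Zfp36l1, Egr1, Ier5, Dusp1, Egr3, Nr4a1 and Egr2. Of the 9 pairs of neighbours in this order, 7 had ranges over the libraries that overlapped. Averages were 359 ± 271 TPM for Zfp36l2, 281 ± 33.7 for Zfp36, 215 ± 150 for Ier2, 209 ± 3.86 for Zfp36l1 and 180 ± 77.9 for Egr1 (mean ± SD, n = 2). The steps with no overlap were those from Egr1 to Ier5 and from Dusp1 to Egr3. The genes thus lay in an upper set of 5, a middle pair (Ier5 and Dusp1) and a lower set of 3. Ranges of genes in 1 set that are not neighbours need not overlap, as for Zfp36 above Zfp36l1 and Egr3 above Egr2.

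**Figure D1:**
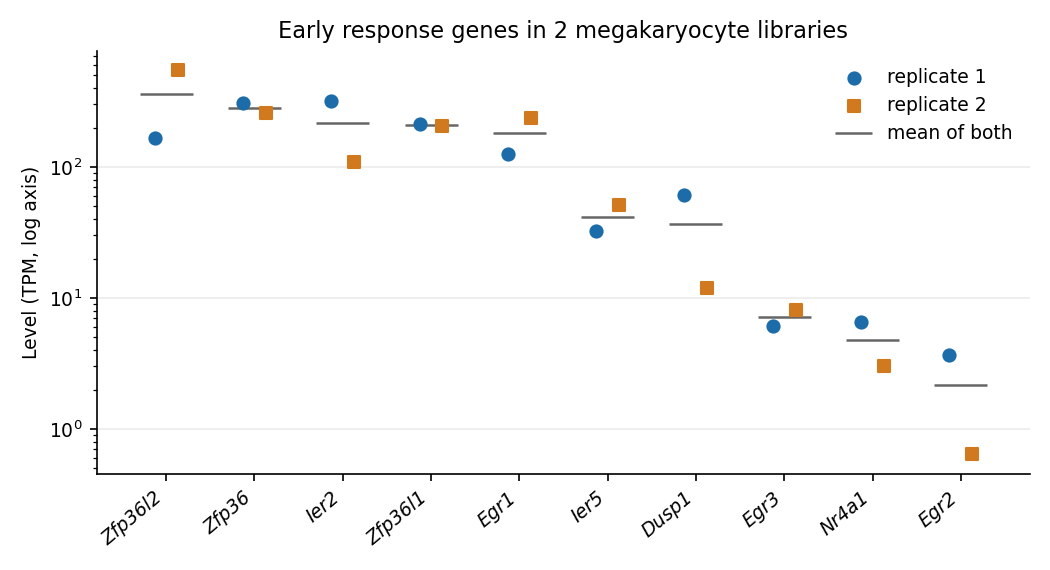
Level of each early response gene in TPM (log axis), with replicate 1 as a circle, replicate 2 as a square and the mean of both as a bar. Zfp36 and Zfp36l1 sit close together in both libraries, whereas Zfp36l2, Ier2 and Dusp1 are spread widely, and Egr2 falls to 0.64 TPM in replicate 2.

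Among the EGR factors, Egr1 was by far the most abundant. EGR1 is a zinc finger activator that binds GC-rich sites and is the family's usual first responder. Egr1 (chromosome 18, 34859823 to 34864984, GRCm38) had 125.4 TPM in replicate 1, from 19837 counts, and 235.5 TPM in replicate 2, from 1897 counts. It ranked 1067th by TPM of all genes in replicate 1 and 631st in replicate 2. Egr1 made up 92.8% of the summed EGR TPM in replicate 1 and 96.4% in replicate 2.

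Egr3 (chromosome 14, 70077203 to 70082614) had 6.13 TPM in replicate 1, against 8.06 TPM in replicate 2, from 308 and 19 counts. EGR3 acts with EGR2 in lymphocyte activation and tolerance. Its value rests on a short gene model, since the only Egr3 transcript in the deposited tables is 1416 bases long and the longest in GENCODE M21 is 3940 bases. Egr2 (chromosome 10, 67535475 to 67542188), known for hindbrain and Schwann cell development and for macrophage and lymphocyte states, was the lowest of the 10 by mean TPM. It had 3.67 TPM in replicate 1, against 0.64 TPM in replicate 2, from 265 and 3 counts. The posterior means deposited by the authors for Egr2 were 3.87 TPM in replicate 1 and 5.16 TPM in replicate 2, so its level and its direction depended on the estimate. By posterior means Egr2 averaged 4.52 TPM and Nr4a1, then the lowest of the 10, 4.39 TPM.

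Nr4a1 was low, and the IER genes lay above it. Nr4a1 (chromosome 15, 101254269 to 101274795), also known as Nur77, is an orphan nuclear receptor and had 6.61 TPM in replicate 1, against 3.01 TPM in replicate 2, from 606 and 13 counts. Ier2 (chromosome 8, 84661331 to 84662852) encodes a small nuclear protein and was among the highest, with 320.9 TPM in replicate 1, against 109.3 TPM in replicate 2, from 17454 and 279 counts. It was the highest of the 10 in replicate 1 and took place 5 in replicate 2. Ier5 (chromosome 1, 155096361 to 155099636), whose product binds PP2A and the heat shock factor HSF1, had 32.32 TPM in replicate 1, against 51.28 TPM in replicate 2, from 3981 and 298 counts.

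The ZFP36 genes had the highest summed level of the families here, and their order changed between the libraries. Together its 3 genes came to 685 TPM in replicate 1, against 1014 TPM in replicate 2, or 849 ± 233 TPM (SD, n = 2). Zfp36, encoding tristetraprolin (chromosome 7, 28376784 to 28380253), had 305.3 TPM in replicate 1, against 257.6 TPM in replicate 2, from 19837 and 787 counts. Zfp36l1 (chromosome 12, 80107754 to 80113013) had 212.2 TPM in replicate 1, against 206.7 TPM in replicate 2, from 16592 and 877 counts, and ranked 686th in both. Zfp36l2 (chromosome 17, 84183931 to 84187947) had 167.2 TPM in replicate 1, against 549.9 TPM in replicate 2, from 22260 and 3455 counts. Zfp36 took the largest share of the family's TPM in replicate 1, at 44.6%, and Zfp36l2 the largest in replicate 2, at 54.2%. Zfp36l2 took place 4 of the 10 genes in replicate 1 and place 1 in replicate 2. The Zfp36 value uses a transcript of 1792 bases, while M21 lists a form of 2790 bases.

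ZFP36 proteins recognise the letters TATTTAT in the message (U in place of T in the RNA), most tightly inside the nonamer TTATTTATT. These letters were searched on the sense strand of the annotated 3′ UTR of each gene's leading transcript. Of the 10 genes, 3 held the heptamer, namely Zfp36, Zfp36l2 and Dusp1, and the same 3 held the nonamer. Over 6913 genes at a mean of 1 TPM with an annotated 3′ UTR, 20.7% held the heptamer and 4.99% the nonamer. Each of the 3 genes had 3 heptamers, and Dusp1 had 2 nonamers. The first nonamer of each, in capitals with its flanks, is shown because it marks messages of the ZFP36 family and of Dusp1 that carry the family's own binding letters. The sites are from GENCODE M21 transcripts on the minus strand of GRCm38, at chr7:28376951-28376978 for Zfp36, chr17:84184914-84184941 for Zfp36l2 and chr17:26506159-26506186 for Dusp1.
Zfp36: atgacgactTTATTTATTgtattaagat
Zfp36l2: ctatttaacTTATTTATTatcttgtgaa
Dusp1: agctggtccTTATTTATTtaacaccccc

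The printed nonamers began 589 bases after the stop codon in Zfp36, 821 bases after it in Zfp36l2 and 103 bases after it in Dusp1. The Dusp1 sites are those of Dusp1-202, which took 0 of 48 Dusp1 counts in replicate 2. Every coding transcript of each gene was also searched, a choice made after the values were seen. Zfp36l1 then held a heptamer too, in a form other than its leading Zfp36l1-202, giving 4 of 10 genes beside 28.5% of all genes. The pentamer ATTTA was present in 8 of 10 genes and in 55.4% of all genes. A match of letters does not show binding, and the search covers the annotated UTR alone, which for Egr3-201 is 50 bases long.

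**Figure D2:**
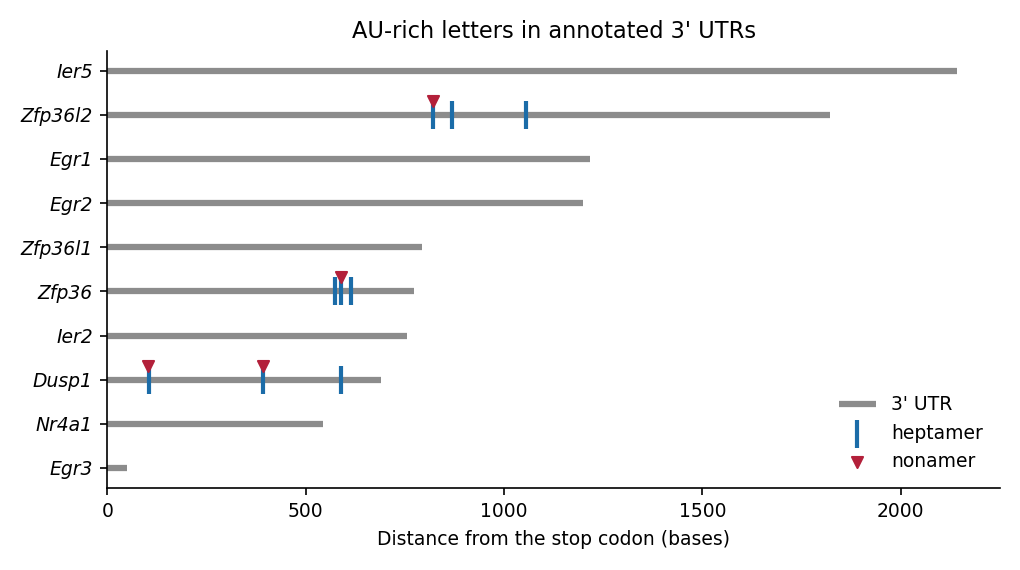
Annotated 3′ UTR of the leading transcript of each gene, drawn to scale from the stop codon in bases, with heptamers as vertical ticks and nonamers as triangles. Zfp36, Zfp36l2 and Dusp1 carry 3 heptamers each, and the other 7 genes carry none.

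Dusp1, the MAP kinase phosphatase, had 61.16 TPM in replicate 1, against 11.93 TPM in replicate 2, from 4723 and 48 counts. Its gene spans chromosome 17, 26505590 to 26562128, while the leading transcript covers 2930 bases of it. Dusp1 ranked 1846th of all genes in replicate 1 and 4101st in replicate 2. The estimated form of the transcript also differed between the libraries. The retained-intron transcript Dusp1-203 took 43.5% of Dusp1 counts in replicate 1 (exact 95% interval 42.1 to 45.0) and 100% in replicate 2 (92.6 to 100). The coding transcript Dusp1-202 took 2647 estimated counts in replicate 1 and 0 of 48 in replicate 2. For that 0 the exact interval reaches 7.40%, for counting error alone. It leaves out error in assigning fragments between these forms. Ergic1, a gene of the opposite strand that overlaps the whole annotated span of the Dusp1 gene at some point, had 2615 and 96 counts in replicates 1 and 2. Whether it overlaps the Dusp1 transcripts that were counted was not examined. Whether the authors counted by strand is not given in the sources used here, so reads of overlapping genes may not be separable.

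Of the 10 genes, 4 have several transcripts in the deposited tables, and all but Dusp1, or 3 of 4, had the same leading transcript by TPM in both libraries. The share was 66.2% over 4695 genes with several transcripts and a mean of 5 TPM. For Egr1, Egr1-201 took 84.4% of counts in replicate 1 (exact 95% interval 83.8 to 84.9) and 100% in replicate 2 (99.8 to 100). Zfp36l1-202 led by TPM in both, with 81.4% of Zfp36l1 TPM in replicate 1 and 52.6% in replicate 2. By counts, the longer Zfp36l1-201 took 26.6% in replicate 1 (exact interval 25.9 to 27.3) and 58.9% in replicate 2 (55.5 to 62.1), so the leading form changed with the measure. Egr2-203 took 231.5 of 265 Egr2 counts in replicate 1 and all 3 in replicate 2. These intervals cover counting error only and treat estimated counts as whole fragments.

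**Figure D3:**
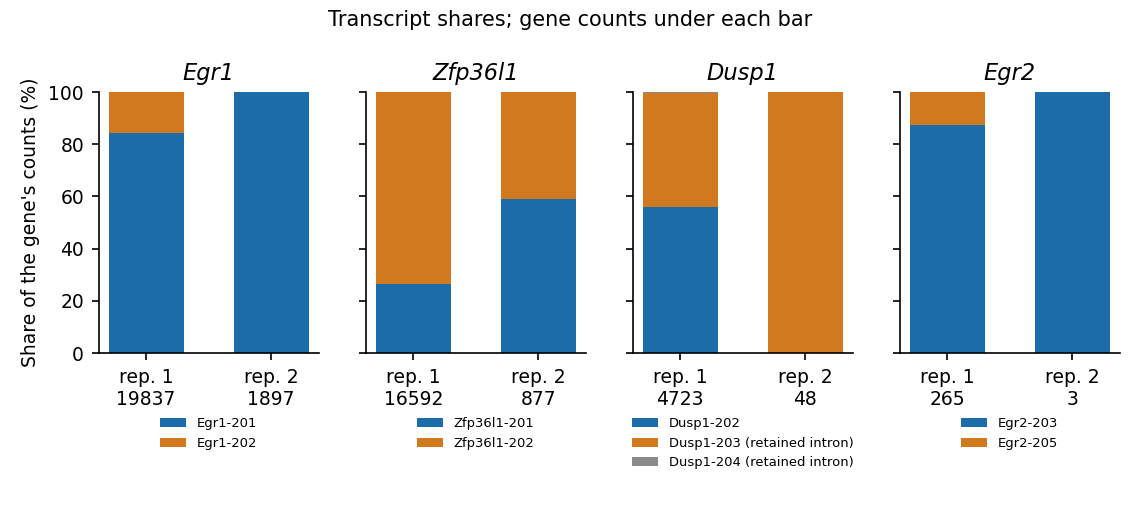
Share of each gene's estimated counts, in percent, taken by each transcript in replicate 1 (left bar) and replicate 2 (right bar) for the 4 genes with several transcripts, with the gene's counts under each bar. Dusp1 in replicate 2 is all retained-intron transcript from 48 counts, and Egr2 in replicate 2 rests on 3 counts.

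To compare the libraries, counts were scaled by TMM factors and divided, replicate 1 over replicate 2. With 1 library on each side there is no replicate check and no test, and a ratio past 2-fold is called without one. All 10 genes had a mean of at least 100 counts, which 4 of them reached through the deeper replicate 1 while holding under 100 counts in replicate 2. Dusp1, Egr2 and Ier2 were at least 2-fold higher in replicate 1, or 3 of 10, beside 33.8% of 8194 genes, and Egr2 turned to lower by posterior mean TPM. Of the 2767 genes behind that share, 2600 had under 100 counts in replicate 2, as did Dusp1 and Egr2. Egr1 and Zfp36l2 were at least 2-fold lower in replicate 1, or 2 of 10, beside 15.7% of the 8194 genes. Both shares lie near those of all genes. The median log2 ratio was -0.20 over the 10 genes and 0.30 over all 8194.

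Dusp1 had a ratio of 3.93 (exact 95% interval 2.96 to 5.33). Egr2 had a ratio of 3.52, but its 3 counts in replicate 2 leave an interval of 1.19 to 17.2, and by deposited TPM its ratio of 5.73 exceeded the 5.13 of Dusp1. Ier2 had a ratio of 2.50 (2.22 to 2.82). At the other end, Zfp36l2 had a ratio of 0.257 (0.248 to 0.266) and Egr1 one of 0.417 (0.398 to 0.438). Zfp36 stood at 1.01 (0.936 to 1.08), with Zfp36l1 at 0.755 (0.705 to 0.809) and Ier5 at 0.533 (0.474 to 0.602). Nr4a1 stood at 1.86 (1.08 to 3.51) and Egr3 at 0.647 (0.407 to 1.09). Members of 1 family thus differed from each other between the libraries, with Zfp36l2 lower in replicate 1 under each scaling tried and Zfp36 between 0.982 and 1.64.

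The split depended on scaling. Under total counts, and with ratios of the deposited TPM, 4 genes were at least 2-fold higher in replicate 1 (Nr4a1 joined) and 1 was lower (Zfp36l2). Of all genes, 43.5% were higher and 7.3% lower with total counts, and 38.1% and 13% by deposited TPM. Total counts also moved the median log2 ratio of all genes to 0.74. By posterior mean TPM, an alternative added after the data were seen, Dusp1, Ier2 and Nr4a1 were higher, Zfp36l2 was lower and Egr2 had a log2 ratio of -0.42. That estimate placed 34.3% of all genes higher and 10.5% lower. Egr1 had a ratio of 0.565 with total counts, 0.532 by deposited TPM and 0.736 by posterior mean TPM, all inside 2-fold. Zfp36, Zfp36l1, Egr3 and Egr2 changed side of 1 under at least 1 scaling, so no direction is given for them. Egr2 is counted as higher by TMM scaling, total counts and deposited TPM, and rests on 3 counts in replicate 2. By TMM scaling, summed counts of the macrophage and granulocyte marker lists were 3.59-fold and 6.26-fold higher in replicate 1. All 7 measured genes of each list were past 2-fold, beside 33.8% of all genes. In each list, 5 of the 7 had under 100 counts in replicate 2 and passed the minimum through replicate 1. Markers under the minimum were left out, so the count of 7 is no support for a difference. The part of these markers in the ratios of Dusp1, Ier2 and Egr2 was not tested. The ratio of all genes also moved with base composition, with a median log2 ratio of 1.03 in the lowest twentieth of GC content and -0.63 in the highest. After removal of this trend, a step added after the data were seen, Dusp1 stood at 4.22, Ier2 at 4.01, Egr2 at 3.07, Egr1 at 0.521 and Zfp36l2 at 0.275. Nr4a1 (2.21) and Ier5 (0.442) then passed 2-fold, and Egr1 no longer did. With the trend removed, 32.5% of all genes were higher and 14.5% lower.

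**Figure D4:**
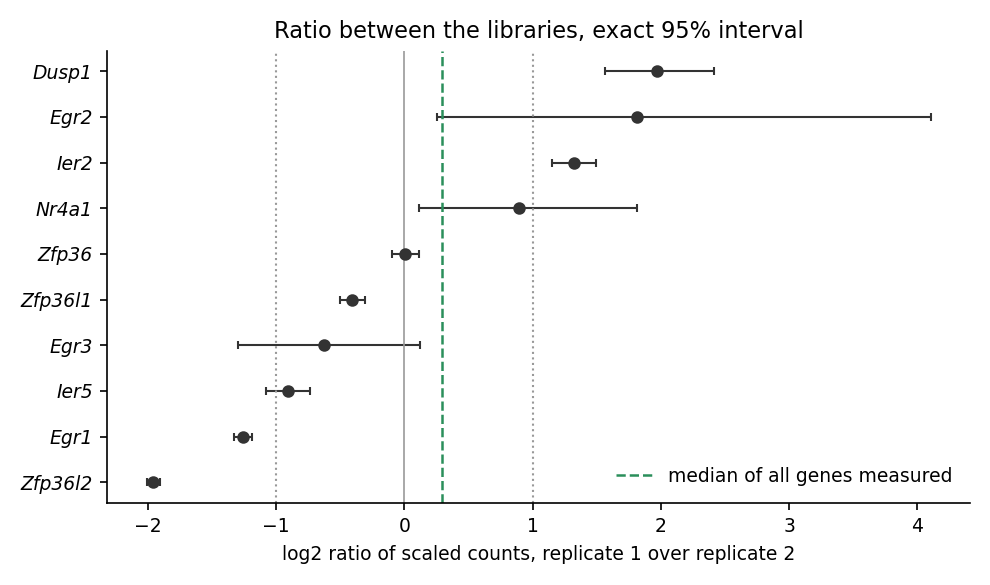
Log2 ratio of TMM-scaled counts, replicate 1 over replicate 2, with the exact 95% interval for counting error, for each gene. Dotted lines mark 2-fold and the dashed line the median of 8194 genes (0.30); Dusp1, Egr2 and Ier2 lie right of the upper line, Egr1 and Zfp36l2 left of the lower one.

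**Figure D5:**
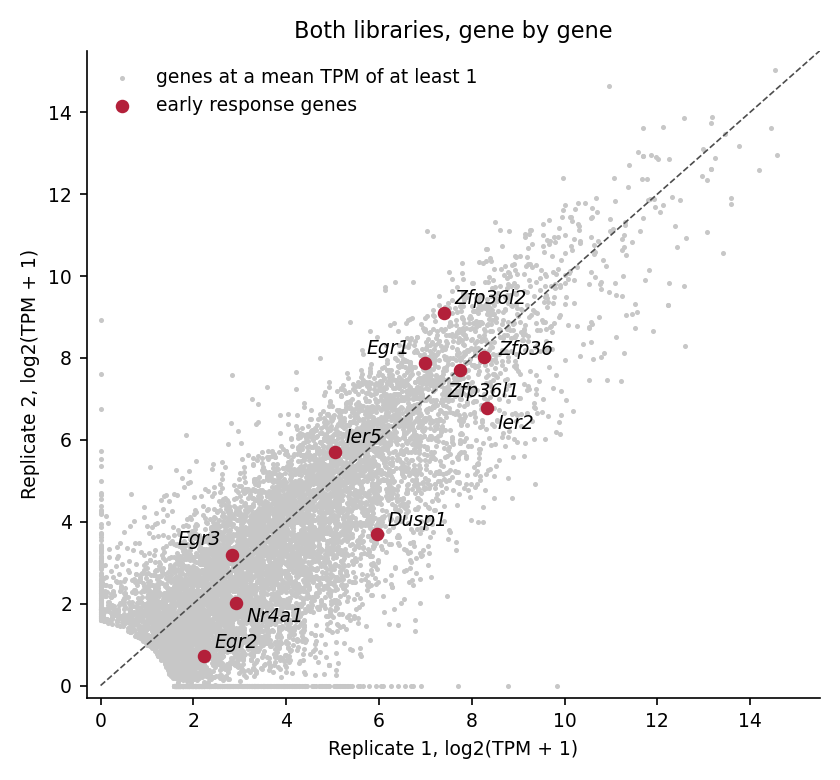
Level in replicate 1 (x axis) and replicate 2 (y axis) as log2(TPM + 1) for 9858 genes at a mean of 1 TPM (grey) and the 10 early response genes (red), with the line of equal level dashed. Dusp1 and Ier2 lie below the line and Zfp36l2 and Egr1 above it, all within the cloud of other genes.

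By distance in log2(TPM + 1) over the 2 libraries, the protein coding genes with levels most like Egr1 were Ppard, Khsrp and Ascc1. Those nearest to Zfp36 were Anapc11, Sdf2l1 and Aprt, and those nearest to Dusp1 were Grcc10, Ech1 and Imp4. The closest of all was Anapc11, at 303.0 TPM in replicate 1, against 254.2 TPM in replicate 2, a distance of 0.0218. Likeness over 2 libraries of 1 group describes levels alone.

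Partners of the 10 genes were also measured. Of the EGR kin and partners, the corepressors Nab1 (65.66 TPM in replicate 1, against 15.92 TPM in replicate 2) and Nab2 (20.49 and 19.61 TPM) were expressed, while Wt1 (0 and 0.2 TPM) and Egr4 (0.11 and 0 TPM) were near 0. Of NR4A kin and partners, the retinoid receptor Rxrb reached 71.96 TPM in replicate 1, against 129.1 TPM in replicate 2 and Rxra 6.71 and 0.45 TPM, while Nr4a2 (0.79 and 0.97 TPM) and Nr4a3 (0.73 and 0.43 TPM) stayed under 1 TPM. Nr4a1 was thus the highest of the 3 NR4A genes in both libraries. Ier3 stood at 63.37 TPM in replicate 1, against 64.04 TPM in replicate 2, and Ier5l at 4.85 and 2.76 TPM.

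Other phosphatases of MAP kinases lay below Dusp1 in replicate 1. The highest of these 9 genes were Dusp4 (25.19 TPM in replicate 1, against 25.75 TPM in replicate 2), Dusp2 (14.09 and 4.03 TPM) and Dusp10 (14.22 and 2.97 TPM), and the lowest was Dusp16 (0.72 and 0.45 TPM). In replicate 2, Dusp4 stood above Dusp1. Of 6 measured at a mean of 100 counts, 4 were at least 2-fold higher in replicate 1, beside 33.8% of all genes, and 0 were lower. All 4 had under 100 counts in replicate 2 and passed the minimum through replicate 1, so the count is no support for a difference. The kinases were led by Mapk3 (ERK1), at 205.3 TPM in replicate 1, against 297.6 TPM in replicate 2, Mapkapk2 (MK2, which phosphorylates ZFP36), at 171.5 and 294.4 TPM, and Mapkapk3, at 47.51 and 35.36 TPM. Mapk12 had 0 counts in both libraries. Of 6 measured kinases, 0 were at least 2-fold higher in replicate 1 and 1 was lower, Mapkapk2 with a ratio of 0.493. The shares over all genes were 33.8% and 15.7%.

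The decay machinery that ZFP36 proteins recruit was largely detected by mean level. A mean of 1 TPM was reached by 11 of 12 CCR4-NOT and decapping genes, beside 22.7% of all genes. In replicate 2 alone, Cnot2 (0.44 TPM), Dcp2 (0.38 TPM) and Cnot6l stayed under 1 TPM. Cnot1 was low in both, at 1.28 TPM in replicate 1, against 1.44 TPM in replicate 2. Cnot3 was far above the rest at 493.3 TPM in replicate 1, against 634.3 TPM in replicate 2, followed by Cnot11 (28.3 and 48.16 TPM) and the deadenylase Cnot7 (29.52 and 31.51 TPM). Cnot6l was lowest at 1.59 and 0.35 TPM. Of 11 measured, 5 were at least 2-fold higher in replicate 1, each with under 100 counts in replicate 2, and 2 were lower, beside 33.8% and 15.7% of all genes. Other proteins that bind AU-rich elements were led by Hnrnpd (AUF1), at 258.8 TPM in replicate 1, against 144.6 TPM in replicate 2, Khsrp, at 119.4 and 240.0 TPM, and Tial1, at 61.98 and 85.67 TPM. The mouse placental family member Zfp36l3 had 0 counts. Of 5 measured, 1 was higher (under 100 counts in replicate 2) and 1 lower in replicate 1 by at least 2-fold, beside the same 33.8% and 15.7%.

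Known AU-rich messages that ZFP36 proteins act on had a median of 0.47 TPM in replicate 1, against 1.21 TPM in replicate 2. Of 13, 7 reached a mean of 1 TPM, beside 22.7% of all genes. The highest were Vegfa (99.75 TPM in replicate 1, against 35.96 TPM in replicate 2), Ccnd1 (12.45 and 14.64 TPM) and Cxcl2 (3.75 and 4.16 TPM). Csf2, Il2, Il3, Il6 and Il10 had 0 counts in both libraries, and the cytokine Tnf, the classic ZFP36 target, stood at 2.78 TPM in replicate 1, against 3.64 TPM in replicate 2. Of 4 measured, 2 were at least 2-fold higher in replicate 1, 1 of them with under 100 counts in replicate 2, and 0 were lower. All genes had shares of 33.8% and 15.7%.

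Of other early response genes, 30 of 31 reached a mean of 1 TPM, beside 22.7% of all genes. The AP-1 factor Jund led at 523.4 TPM in replicate 1, against 1445 TPM in replicate 2, followed by Junb (703.6 and 805.7 TPM) and the kinase Pim1 (293.3 and 605.7 TPM), and Ccn2 was lowest at 0.68 and 0 TPM. Of 29 measured, 6 were at least 2-fold higher in replicate 1 (5 with under 100 counts in replicate 2) and 6 were lower, with a median log2 ratio of -0.04. Over all genes the shares were 33.8% and 15.7%. The list and the 10 genes thus both held calls in each direction, as did all genes.

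The 10 genes share a compact structure. Their leading transcripts spanned a median of 3488 bases of genome (1522 for Ier2 to 7950 for Nr4a1), beside 13151 bases over 9027 detected protein coding genes. They had a median of 2 exons, from 1 in Ier2 and Ier5 to 7 in Nr4a1, beside 6. Median 3′ UTR length was 784 bases for the 10 genes and 680 bases for detected genes.

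Promoter windows from RefSeq (250 bases before to 50 after the start, GRCm38.p6) were matched for 6 of the 10 genes, Ier5, Zfp36, Egr2, Zfp36l1, Nr4a1 and Dusp1. Both strands were searched for the CArG box (the core of the serum response element, bound by SRF), the CRE letters TGACGTCA (bound by CREB) and the EGR site, GCGTGGGCG or GCGGGGGCG. A CArG box was found in Zfp36 and Egr2, or 2 of 6 genes, beside 1.81% of 27025 genes and 1.63% of their 32851 windows. A CRE was found in Dusp1 alone, beside 2.03% of genes, and an EGR site in Zfp36 and Nr4a1, beside 3.93% of genes. The matches, in capitals, are shown on the strand of the gene because they are the letters through which these factors are known to act on early response genes.
Zfp36 CArG box, chr7:28379267-28379296, minus strand: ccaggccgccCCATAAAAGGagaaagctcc
Zfp36 EGR site, chr7:28379314-28379343, minus strand: gagctacgccGCGGGGGCGcgtcccggaag
Egr2 CArG box, chr10:67537787-67537816, plus strand: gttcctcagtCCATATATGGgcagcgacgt
Egr2 second CArG box, chr10:67537484-67537513, plus strand: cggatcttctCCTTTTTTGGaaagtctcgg
Dusp1 CRE, chr17:26508597-26508626, minus strand: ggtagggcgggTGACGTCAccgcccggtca
Nr4a1 EGR site (read on the other strand), chr15:101266776-101266805, plus strand: gcgtcagtggCGCCCCCGCccctctccatg

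The CArG box of Zfp36 lay 58 to 49 bases before the start, its EGR site 105 to 97 bases before it, the CRE of Dusp1 143 to 136 bases and the EGR site of Nr4a1 60 to 52 bases. No binding was measured in these libraries, and a match is a description of the sequence.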

How the data were processed

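Polyadenylated RNA of 2 megakaryocyte libraries of 1 group was analysed from the tables of genes and transcripts the authors deposited. Assembly mm10 and annotation GENCODE M4 are named in the deposited file lists; how reads were aligned and quantified is not given in the sources used here. Expected counts, per the file headers, are estimated fragments that need not be whole; they were rounded. TPM, per the file headers, is the authors' maximum likelihood estimate or posterior mean, per effective length; the maximum likelihood one was used unless the posterior mean is named. Effective lengths, another deposited column, were not changed.

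Of 69691 rows, 43346 Ensembl genes were used, and 26248 numeric and 97 control rows were left out. Symbols (98% of genes), positions and 3′ UTRs came from GENCODE M21 on GRCm38, the assembly of mm10, matched by identifier without version. TMM factors (1.16 for replicate 1 and 0.859 for replicate 2) came from edgeR 4.0.16 in R 4.3.3 over genes at a mean of 10 counts, and DESeq2 1.42.0 gave alternative size factors. The ratio step was tested on simulated counts that held known changes and counting error only. They held no GC trend and no further spread between replicates, so they cannot show how far these move the real ratios. Ratios used a minimum mean of 100 counts, and their 95% intervals (exact, after Clopper and Pearson, given the sum of both counts) cover counting error only. The floor for a gene at 0 was 3 counts, equal to 0.0713 CPM in replicate 1 and 1.32 CPM in replicate 2. Python 3.11.15, pandas 2.3.3, scipy 1.17.1 and matplotlib 3.10.9 did the rest.

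The 10 genes and all lists were chosen with earlier results of these data known. The text names all 10 genes, the 3 highest and the lowest of each partner list by mean TPM, and the 3 nearest genes to Egr1, Zfp36 and Dusp1; others were named after their values were seen.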

Additional observations from a re-analysis of the deposited data

How the results depend on the processing

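The libraries differ so much in depth that replicate 2 limits every ratio: Egr2, Nr4a1, Egr3 and Dusp1 had 3, 13, 19 and 48 counts there. No paired analysis was possible because the labels give 1 group. The median level of 111 TPM was 89.9 TPM with posterior means and ran from 80.3 to 93.3 TPM with 1 library left out; the median of 6.41 on the log2(TPM + 1) scale was 6.59 with a pseudocount of 10. The 2 genes at least 2-fold lower in replicate 1 became 1 with total counts, 1 with deposited TPM and 1 with posterior mean TPM, which was added after the data were seen. The share of all genes that were lower, 15.7%, became 7.3%, 13% and 10.5% in the same order. The median log2 ratio of -0.20 was 0.24 with total counts, 0.14 with deposited TPM, 0.26 with posterior mean TPM and -0.41 over the 7 genes at a mean of 50 CPM, a minimum added after the data were seen. Over all genes the median of 0.30 was 0.74, 0.45, 0.41 and -0.37 in the same order. At the minimum of 50 CPM, 407 of 2575 genes (15.8%) were at least 2-fold higher and 679 (26.4%) lower in replicate 1. With the main minimum 2767 of 8194 genes (33.8%) were higher and 1288 (15.7%) lower. The larger share was thus higher at the main minimum and lower at 50 CPM. With total counts 598 of the 8194 genes (7.3%) were lower. The 3 genes with the AU-rich heptamer became 8 with the pentamer, a shorter match by construction. The causes of the other changes were not tested. The genes at least 2-fold higher in replicate 1 (3) numbered 2 to 4, the detected genes (10) 8 at a minimum of 5 TPM, and the genes with the same leading transcript (3) 2 by counts. Of 80 alternatives for single genes, 51 stayed within the error, 28 moved by more and 1 turned a called direction: the log2 ratio of Egr2, 1.82, was -0.42 with posterior mean TPM.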
